A study of Caenorhabditis elegans with 12 samples.

Results

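The annular furrow collagens of C. elegans are the products of dpy-2, dpy-3, dpy-7, dpy-8, dpy-9 and dpy-10. These 6 genes were taken by name from the 46726 genes of the N2 table, all 6 were matched to a gene identifier, and all 6 were tested, together with every other gene that averaged 5 normalized counts or more (14965 in all). A normalized count is the number of reads on a gene divided by one size factor for its library, as the authors deposited it.

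The cuticle is an extracellular coat built mainly of collagens, which the epidermis secretes and renews at every moult. Its surface is ringed by shallow circumferential grooves, the annular furrows, and the 6 collagens named above are needed to form them. Worms that lack any of them lose the furrows and become short and stout, the dumpy shape that gives the genes their name. In such mutants the epidermis also turns on antimicrobial peptide, osmotic and detoxification genes. Transcripts of the furrow collagens come and go with each larval moulting cycle and appear ahead of those of many other cuticle collagens.

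The comparison asked how the transcripts of late L1 larvae respond to pheromones that favour the dauer stage. Wild-type N2 worms were split at 6 h after hatching into liquid cultures, of which 3 were given an ethanol solution of 3 synthetic ascarosides, ascr#8, ascr#3 and ascr#2, and make up treated libraries 1 to 3. The other 3 were given only ethanol and make up control libraries 4 to 6, with the numbers that the columns of the table carry. RNA of whole larvae was taken after 3 h. The total concentration of ascarosides is 5 µM by the labels and lower by the methods of the study. Both groups share the strain and the parent culture, so the replicates are cultures split from one population, and p-values measure only the spread between these cultures. The 6 samples of daf-22(ok693) worms, a strain that cannot finish the synthesis of ascarosides, were not analysed here.

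The libraries held 11133417 to 19116807 reads on genes, of which a single ribosomal RNA gene took 8.18% or more in each library. The L1 genes lin-14 and lin-28 were well expressed in every library, while the adult cuticle gene col-19 had at most 1 read. The L1 markers cut-3 and cut-5 had at most 54 and 28 reads in a library. Of the other adult markers, vit-6 reached 16 reads and vit-2 10. The 5 adult markers summed to 2.61 to 10.5 normalized counts in treated and 15.6 to 21.3 in control libraries, without overlap. The 4 L1 markers summed to 2915 to 3056 normalized counts in treated and 2180 to 2672 in control libraries, without overlap, and all 4 had a positive log2 fold change, with 0 called and 2 higher at an unadjusted p under 0.05 in limma (lin-14, 0.40, and lin-28, 0.27). The 4 general epidermal markers summed to between 17585 and 18465 normalized counts in treated libraries and between 12983 and 18040 in control libraries, and 0 of the 4 had an adjusted p under 0.05. At an unadjusted p under 0.05 in limma 1 of these 4 was lower, lin-26 (log2 fold change -0.38). The list was split, with che-14 also negative (-0.13) and elt-3 (0.17, without overlap) and vab-10 (0.24) positive. Most of the sum was vab-10, at 16606 ± 380 in treated and 14247 ± 2410 in control cultures (SD, n = 3 each). The 5 seam cell markers summed to 2632 to 2731 in treated and 2171 to 2328 in control libraries, with 1 of 5 called, grd-10, which was higher. Most of that sum was grd-10, at 1813 ± 54.4 in treated and 1367 ± 80.2 in control cultures (SD, n = 3 each). Of the other seam markers egl-18 (-0.26) and nhr-73 (-0.32) were negative and elt-6 (0.11) and ceh-16 (0.22) positive. Of 5 intestinal markers 1 was called, ges-1, which was higher (log2 fold change 0.78), and their sums overlapped. The intestinal markers elt-2 (-0.17), act-5 (-0.16) and pgp-1 (-0.25) were negative and ifb-2 (0.11) positive. In body muscle myo-3 was higher (0.49) and hlh-1 lower (-0.47) without overlap and without a call, and the 4 germ line markers were all positive, 2 of them without overlap and 0 called. Among all genes tested, 2.06% were called higher in limma and 1.46% lower. An unadjusted limma p below 0.05 was reached by 8.05% of genes with a rise and 7.13% with a fall. The groups did not overlap for 9.78% of genes with higher treated values and 9.53% with lower ones. The part of these stage and tissue markers in the values below was not tested.

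All 6 furrow collagens had a lower mean in treated than in control cultures, by 9.79% to 24.2%. For 5 of them, all but dpy-8, the 3 treated values lay below the 3 control values, as they did for 9.53% of all genes tested, and 0 of 6 lay the other way (9.78% of all genes). After adjustment over all genes, dpy-3 alone fell (limma with Benjamini-Hochberg adjustment), 1 of 6, where 1.46% of all genes tested were called lower and 3.52% in either direction. The 6 genes share the same 6 libraries and are not independent of each other. In whole larvae, fewer epidermal cells and less of a transcript per cell cannot be told apart. Whether the groups differed in their point of the moulting cycle was not tested.

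The largest differences were those of dpy-3 and dpy-9. dpy-3 (WBGene00001065, chromosome X) had 1635, 1758 and 1816 normalized counts in treated libraries 1, 2 and 3, against 2444, 2121 and 2268 in control libraries 4, 5 and 6. The groups did not overlap, and the highest treated value was below the lowest control value by more than the treated SD (1736 ± 92.6 in treated and 2277 ± 162 in control cultures, SD, n = 3 each). On the log2 scale dpy-3 changed by -0.39 with a standard error of 0.105 (adjusted p = 0.0487, limma). The call stands close to the threshold. With one library left out, the adjusted p of dpy-3 in limma was 0.293 without treated library 1, 0.205 without treated library 2, 0.125 without treated library 3 and 0.154 without control library 6, and it stayed under 0.05 without control library 4 (0.0280) or 5 (0.0245). Over all 17 alternatives it ranged from 0.0147 to 0.293 and passed in 6, with a negative log2 fold change in each.

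dpy-9 (WBGene00001071, chromosome IV) had 1495, 1566 and 1583 normalized counts in treated libraries 1, 2 and 3, against 1890, 1847 and 2391 in control libraries 4, 5 and 6. Again the groups were apart, and control library 6 stood well above the other controls. Its log2 fold change of -0.39 was as large as that of dpy-3, with an adjusted p of 0.0783 in limma and a wider spread in the controls (1548 ± 46.6 in treated and 2043 ± 303 in control cultures, SD, n = 3 each). It passed with DESeq2 on the recovered reads (adjusted p = 0.0409). In limma it passed without control library 4 (adjusted p = 0.00983) or control library 5 (0.0316), in a range over the alternatives up to 0.369. Without control library 4, 657 of 14998 genes tested were called lower in limma, against 218 of 14965 with all libraries.

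The neighbouring genes dpy-2 and dpy-10 had similar values. They lie on chromosome II on opposite strands, pointing away from each other, with 0 annotated coding genes wholly between them. dpy-2 (WBGene00001064) had 1751, 1800 and 1850 normalized counts in treated libraries 1, 2 and 3, against 2481, 2032 and 2320 in control libraries 4, 5 and 6. The treated cultures averaged 1801 ± 49.5 (SD, n = 3), the tightest group of any member relative to its mean. Its log2 fold change was -0.33 with a standard error of 0.107 (adjusted p = 0.111, limma), and the adjusted p of dpy-2 ranged over the alternatives from 0.0315 without control library 5 to 0.396. dpy-10 (WBGene00001072), whose mutant alleles can give dumpy or rolling worms, had 1820, 2122 and 2095 normalized counts in treated libraries 1, 2 and 3, against 2778, 2376 and 2534 in control libraries 4, 5 and 6. No treated library reached any control, and treated library 1 was the lowest of all. The log2 fold change was -0.35 with a standard error of 0.109 (adjusted p = 0.0982, limma), and it passed in 1 of the 17 alternatives, quantile normalization (0.0326). The coding gene T14B4.19, which overlaps dpy-10 on the same strand in the WBcel235 annotation, is not among the genes of the N2 table. Whether reads of the overlap were counted for dpy-10 was not tested.

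The remaining members are on chromosome X and had the smallest differences. dpy-7 (WBGene00001069), whose promoter is widely used to drive expression in the epidermis, had 1974, 2143 and 2012 normalized counts in treated libraries 1, 2 and 3, against 2500, 2226 and 2558 in control libraries 4, 5 and 6. The groups did not overlap, although treated library 2 and control library 5 came close. Its log2 fold change was -0.25 (95% interval -0.47 to -0.03, adjusted p = 0.257 from limma), and it passed in 0 of the 17 alternatives, with an unadjusted p of 0.0298.

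dpy-8 (WBGene00001070) was the member with the highest counts, with 2978, 3212 and 3017 normalized counts in treated libraries 1, 2 and 3, against 3607, 2873 and 3727 in control libraries 4, 5 and 6. Here the groups overlapped, and control library 5 lay below every treated library. The log2 fold change was -0.14 (95% interval -0.38 to 0.10, adjusted p = 0.624 from limma), an interval that holds 0 and also holds a change as large as that of dpy-2. It was -0.26 without control library 5 (adjusted p = 0.234) and -0.07 without control library 6 (0.899). The gene C31H2.14, which overlaps dpy-8 on the opposite strand, averaged 1.48 normalized counts.

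**Figure D1:**
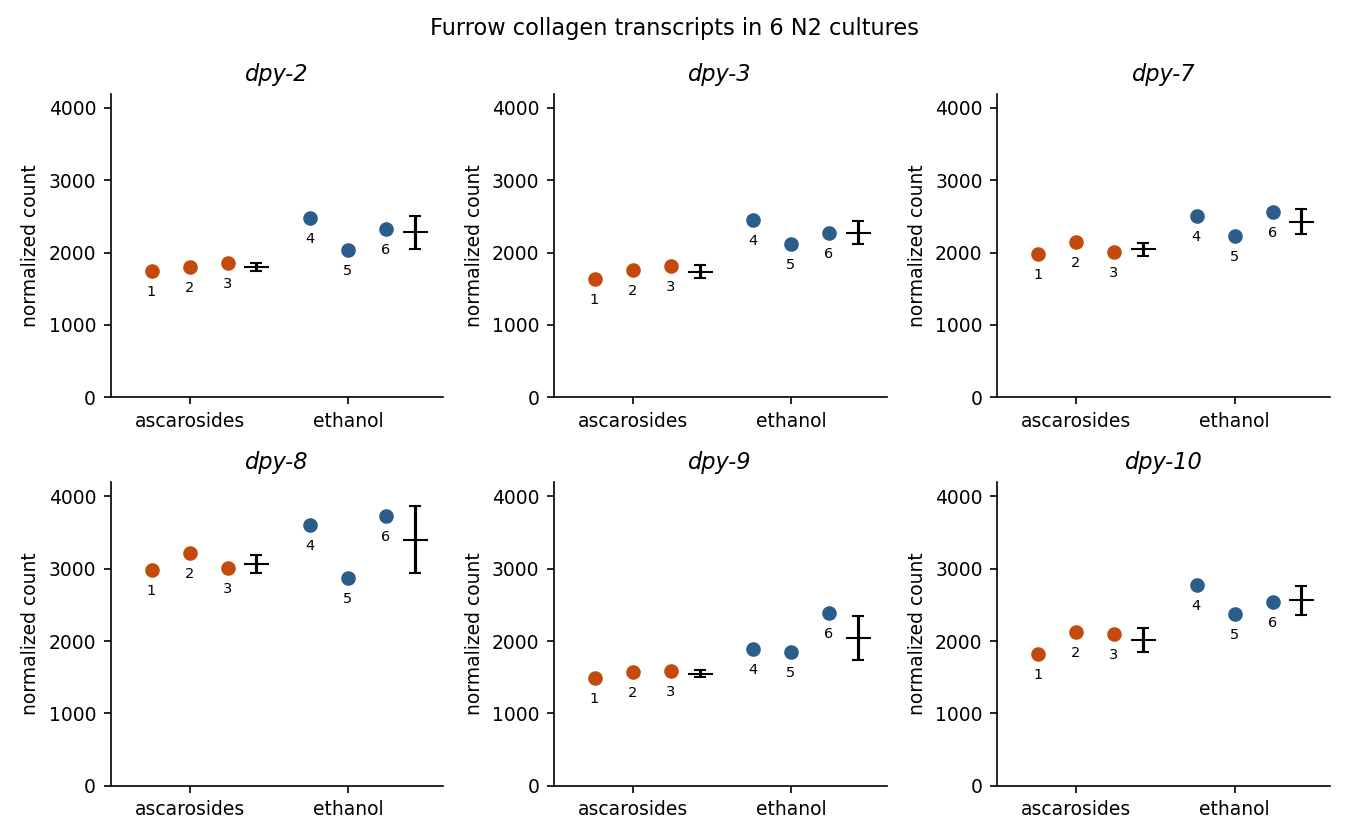
Normalized counts of the 6 furrow collagens (y axis, from 0) in the cultures with ascarosides (orange, left) and with ethanol (blue, right). Each point is a library with its number beside it, and the bar is the mean with its SD (n = 3). In every panel but that of dpy-8 the treated points lie below the control points, and control library 5 is the lowest control for all 6 genes.

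A single gene compared between 3 and 3 cultures cannot give an exact permutation p below 0.1 (two-sided). The 5 members without overlap gave this smallest value, and dpy-8 gave 0.4. At an unadjusted p under 0.05 in limma, 5 of the 6 were lower and 0 higher, against 7.13% of all genes tested that were lower and 8.05% that were higher. The model on recovered reads in edgeR also put 5 of 6 under an unadjusted p of 0.05, but called 0 of 6 after adjustment (1.5% of all genes were called lower by edgeR), and DESeq2 called 2 of 6, dpy-3 and dpy-9 (1.88% of all genes were called lower by DESeq2). Counting error was small beside these differences. The members had 1214 to 4636 recovered reads in a library, for a counting error of 1.47% to 2.87%. The coefficient of variation between cultures was 2.75% to 8.29% in treated and 7.10% to 14.8% in control cultures. In treated cultures that of dpy-2 (2.75%) and dpy-9 (3.01%) was close to their largest counting error (2.65% and 2.87%). In 5 of the 6, all but dpy-10, the controls varied more than the treated cultures.

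**Figure D2:**
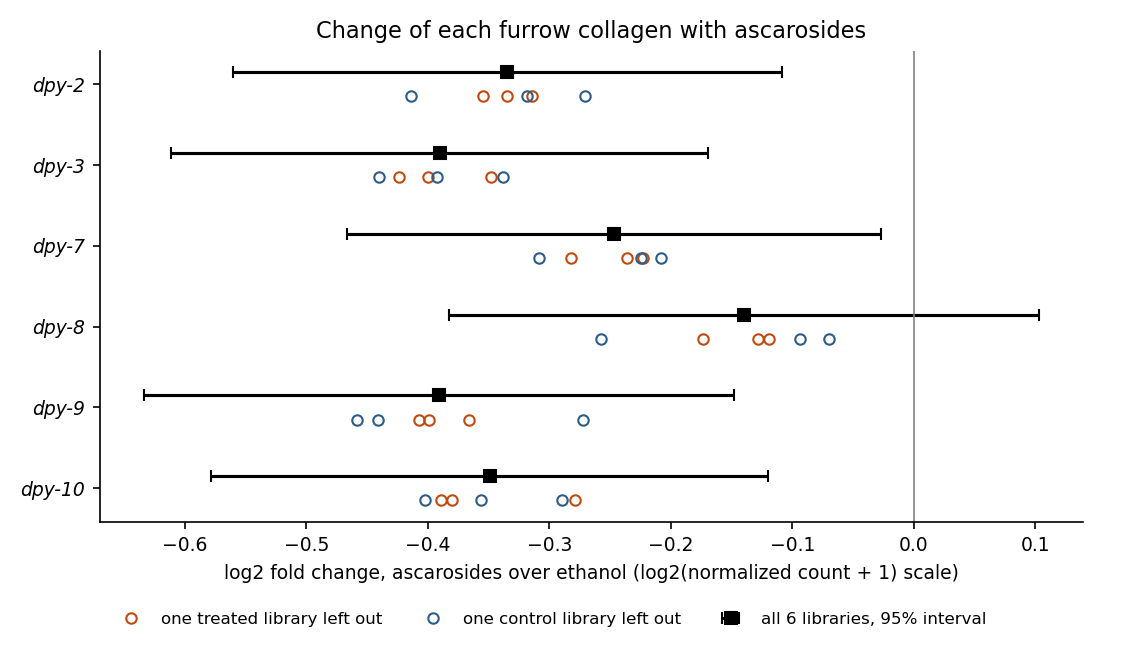
Log2 fold change of each furrow collagen, ascarosides over ethanol, on the log2(normalized count + 1) scale (x axis). Squares with bars are the limma estimates from all 6 libraries with their 95% intervals, and open circles are the estimates with one treated (orange) or one control (blue) library left out. All squares and circles lie below 0, and the interval of dpy-8 alone reaches above 0.

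The members shared the lowest library of each group. Treated library 1 was the lowest treated library for 6 of 6 members, and control library 5 was the lowest control library for 6 of 6. These libraries were also the lowest of their groups on average for the 16 moult genes and the 10 epidermal transcription factors described below. For the 11 other body shape collagens treated library 1 was the lowest treated library on average, but control library 6 the lowest control library. Among the members the highest library was not shared. Among controls it was library 4 for 3 members (dpy-2, dpy-3 and dpy-10) and library 6 for the other 3, and among treated cultures library 2 and library 3 were each the highest for 3 members. Pearson's r between the log2 values of a member and the mean of the other 5, over the 6 libraries, was 0.98 for dpy-7, 0.97 for dpy-2, 0.95 for dpy-3, 0.93 for dpy-10, 0.85 for dpy-9 and 0.77 for dpy-8. These values describe 6 points that share the split between the groups and the size factor of each library.

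Summed over the 6 members, the furrow collagens came to 11654, 12600 and 12374 normalized counts in treated libraries 1, 2 and 3, against 15700, 13475 and 15798 in control libraries 4, 5 and 6. The sums did not overlap, and the treated mean was 18.6% lower (12209 ± 494 in treated and 14991 ± 1314 in control cultures, SD, n = 3 each). As a share of all normalized counts on genes the sums did not overlap either, although that total includes the ribosomal RNA gene, whose part varied between libraries. Within the sum, dpy-8 took 24.4% to 25.6% in treated and 21.3% to 23.6% in control libraries, the only member whose share did not overlap between the groups. dpy-2, dpy-3 and dpy-7 each had a ratio to dpy-8 that was lower in every treated than in every control library, and the 12 other ratios of the 15 between members overlapped.

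Levels per length placed the members within a narrow range. Per kilobase of coding length (from the WBcel235 annotation), dpy-8 had the highest level in treated cultures with 2263 ± 92.3 normalized counts per kilobase and dpy-2 the lowest with 1579 ± 43.4 (SD, n = 3). The order in treated cultures was dpy-8, dpy-7, dpy-3, dpy-10, dpy-9 and dpy-2. Of these neighbours, dpy-7 and dpy-3 did not overlap, nor did dpy-10 and dpy-9, and the other 3 pairs of neighbours did. In control cultures the levels per kilobase lay between 2545 ± 186 for dpy-7 and 1998 ± 199 for dpy-2 (SD, n = 3), and all 5 pairs of neighbours overlapped. With exon length in place of coding length, dpy-10, which has 1593 exon bases for 1068 coding bases, moved to rank 6 in both groups, against rank 4 by coding length, so that dpy-2 was no longer the lowest. dpy-3 then stood above dpy-7 in both groups and was the highest in control cultures, and dpy-8 was still the highest in treated cultures.

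Other collagens that set body shape, but are not needed for the furrows, had fold changes on both sides of 0. Of 15 listed, 14 were matched and 11 tested, 7 with a negative log2 fold change and 4 with a positive one, and the median was -0.16, against -0.34 for the furrow collagens and 0.002 for all genes tested. The list also held bli-1, bli-2, bli-6 and ram-4, which are not named for body shape. ram-4 was not matched, and the bli genes averaged under 5 normalized counts and were not tested, but are part of the sums below. In limma 0 of the 11 passed after adjustment, as with edgeR and DESeq2. At an unadjusted p under 0.05 in limma 2 were lower and 0 higher, against 7.13% and 8.05% of all genes tested. The groups were apart for 5 of the 11, with rol-6, rol-8, sqt-1 and sqt-2 lower in treated cultures (4 of 11, where 9.53% of all genes tested were apart in this direction) and dpy-13 higher. The lowest was rol-6, a collagen whose alleles make worms roll, with 5237, 5605 and 5181 normalized counts in treated libraries 1, 2 and 3, against 6288, 6456 and 6350 in control libraries 4, 5 and 6 (log2 fold change -0.25, adjusted p = 0.233 from limma). The highest was dpy-5, at 11784 ± 492 in treated and 10586 ± 970 in control cultures (SD, n = 3 each, log2 fold change 0.16). The sums of the 14 overlapped, at 74696 to 81029 in treated and 79213 to 81785 in control libraries. The furrow sum was 15.6% to 16.1% of that sum in treated and 16.9% to 19.9% in control libraries, without overlap.

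**Figure D3:**
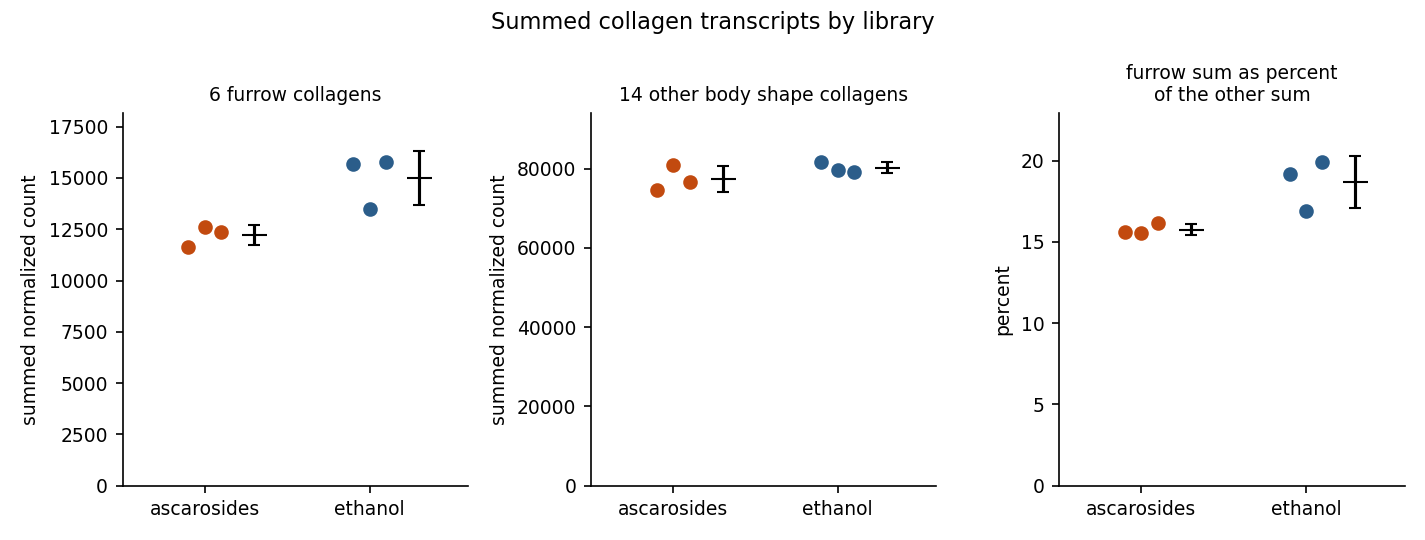
Summed normalized counts by library for the 6 furrow collagens (left) and 14 other body shape collagens (middle), and the first as a percent of the second (right), with all y axes from 0. Points are libraries with ascarosides (orange) or ethanol (blue), and bars are the mean with its SD (n = 3). The furrow sums and the percents do not overlap between the groups, and the sums of the other collagens do. The 14 include bli-1, bli-2 and bli-6, which are not named for body shape.

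The genes named col, the largest class of cuticle collagens and taken here by name prefix after earlier results were known, had a median above 0. Their median log2 fold change was 0.11 over the 112 tested, 41 of which were negative. The values ranged from -1.47 for col-35 to 2.02 for col-152. In limma 17 were called higher and 0 lower, and with an unadjusted p under 0.05 as the limit there were 32 higher and 7 lower (1 and 2 were called lower with edgeR and DESeq2). The count of col genes called higher was 11 without treated library 1, where 149 of all 14932 genes tested were called higher. It was 22 without control library 4, where 5 col genes were called lower. That fit called 783 of 14998 genes tested higher and 657 lower. With all libraries 309 of 14965 genes tested (2.06%) were called higher. At an unadjusted p under 0.05 in limma 8.05% of all genes tested were higher and 7.13% lower. The sum of the col genes was 195124 to 206772 normalized counts in treated and 162428 to 171563 in control libraries. Whether the furrow collagens differ from either class was not tested.

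The genes that modify, secrete and crosslink collagens had a median near 0. These 16 genes include prolyl hydroxylase subunits, proprotein and procollagen proteases and the oxidase that crosslinks the cuticle. Their median log2 fold change was -0.01. After adjustment 0 of 16 passed in limma, edgeR or DESeq2. At an unadjusted p under 0.05 in limma 1 was higher and 0 lower, against 8.05% and 7.13% of all genes tested. The values ranged from -0.27 for let-268, a lysyl hydroxylase, to 0.66 for phy-2, a prolyl hydroxylase subunit (adjusted p = 0.156), whose libraries spread widely (4994 ± 1290 in treated and 3280 ± 1477 in control cultures, SD, n = 3 each).

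Among 10 epidermal transcription factors the median log2 fold change was -0.14, and 0 passed after adjustment in limma. The lowest was nhr-23, a nuclear receptor required for moulting, with 489, 456 and 535 normalized counts in treated libraries 1, 2 and 3, against 790, 567 and 752 in control libraries 4, 5 and 6. The groups were apart, control library 5 was again the lowest control, and nhr-23 had a log2 fold change of -0.50 (adjusted p = 0.0533, limma). It was called with edgeR (0.0429) and DESeq2 (0.0216), each with 1 of 10 called. With one library left out, its adjusted p in limma was 0.00366 without control library 5 and between 0.0544 and 0.298 without any of the other 5. At an unadjusted p under 0.05 in limma 3 of the 10 were lower and 0 higher, against 7.13% and 8.05% of all genes tested. The highest log2 fold change was 0.17 for elt-3. Control library 4 was the highest of all libraries for 8 of the 10. The median of this list was -0.05 without control library 4, with 5 of 10 negative, -0.06 without treated library 1, and -0.23 without control library 5, with 2 called lower.

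Genes of the apical matrix and of moulting had a median log2 fold change of -0.14 over 16 tested, with 13 negative. At an unadjusted p under 0.05 in limma 5 were lower, against 7.13% of all genes tested. In limma or edgeR 0 were called, and 1 was called lower with DESeq2. The lowest was noah-1, a protein of the embryonic and moulting matrix, at 5701 ± 826 normalized counts in treated and 7750 ± 1969 in control cultures (SD, n = 3 each, log2 fold change -0.42, adjusted p = 0.185 from limma), and the highest nas-7 at 0.13. In this list control library 4 was the highest of all libraries for 13 of 16 genes. Without control library 4 the median of the moulting list was -0.01, with 8 of 16 negative. That of the other body shape collagens was -0.04, and that of the furrow collagens was -0.28, with 6 of 6 negative and 2 called. In that fit 657 of 14998 genes tested were called lower, against 218 of 14965 with all libraries. Without control library 5 the median of the moulting list was -0.28. In limma 8 of its 16 genes were then lower at an unadjusted p under 0.05 and 3 were called lower. The median of the other body shape collagens was -0.20, and that of the furrow collagens was -0.41, with 3 called. That fit called 216 of 14954 genes tested lower. Without control library 6 the median of the moulting list was -0.21 and that of the other body shape collagens was -0.15. The furrow median was then -0.30, with 0 of 6 called. With treated library 1, 2 or 3 left out, the furrow median was -0.30, -0.36 or -0.37, with 0 of 6 called in each fit.

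**Figure D4:**
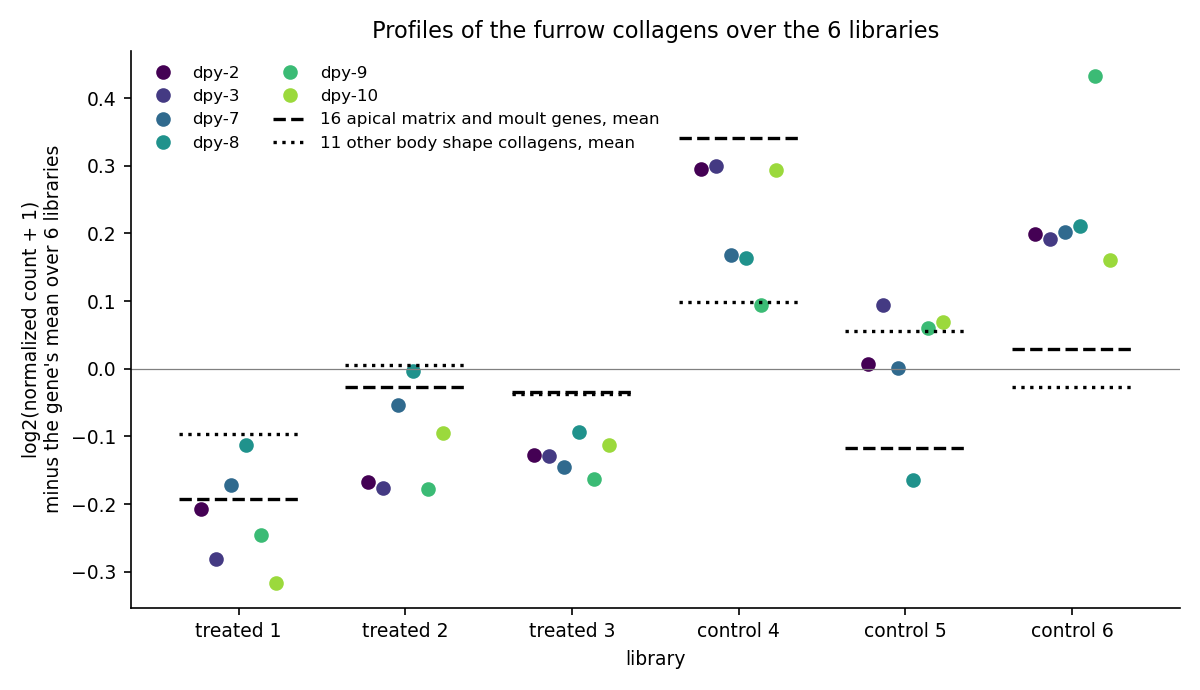
Log2(normalized count + 1) of each furrow collagen minus its mean over the 6 libraries (y axis) in each library (x axis, treated on the left). Dashed bars are the mean over 16 apical matrix and moult genes and dotted bars that over 11 other body shape collagens. The moult genes average 0.34 in control library 4 and 0.03 in control library 6, where the furrow collagens average 0.22 and 0.23.

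Transcripts that furrow mutants are known to raise formed the last list. Of 7 such genes 3 were called lower in limma, the antimicrobial peptide genes nlp-29, nlp-31 and cnc-2, and 0 higher. Among all genes tested 1.46% were called lower and 2.06% higher. At an unadjusted p under 0.05, 1 of the 7 was higher in limma and 0 in edgeR and DESeq2. nlp-29 had 667, 711 and 857 normalized counts in treated libraries 1, 2 and 3, against 1112, 1888 and 1722 in control libraries 4, 5 and 6 (log2 fold change -1.05, adjusted p = 9.41e-04 from limma). nlp-31 had a log2 fold change of -0.99 (adjusted p = 0.00236) and cnc-2 one of -1.22 (adjusted p = 0.0154), and cnc-2 alone of these overlapped between the groups. The fall of cnc-2 was not called in limma without treated library 1 (0.0694), treated library 2 (0.165) or control library 6 (0.101), nor with DESeq2 (0.0988) or robust eBayes (0.245). With eBayes without a trend none of the 3 was called (0.168 for nlp-29, 0.187 for nlp-31 and 0.323 for cnc-2). These peptide genes were already known to be lower in these data, so their count is a description. The median of the 7 was -0.71, and it was -0.43 without control library 5, -0.47 without treated library 1 and -1.06 without control library 4. Among the osmotic and detoxification genes, log2 fold changes were -0.71 for gpdh-1, 0.36 for hmit-1.1, 0.23 for gst-4 and -0.21 for gcs-1, none called. The peptide genes did not share the libraries' order with the furrow collagens, since control library 4 was their lowest control and control library 5 was the highest for nlp-29 and nlp-31.

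**Figure D5:**
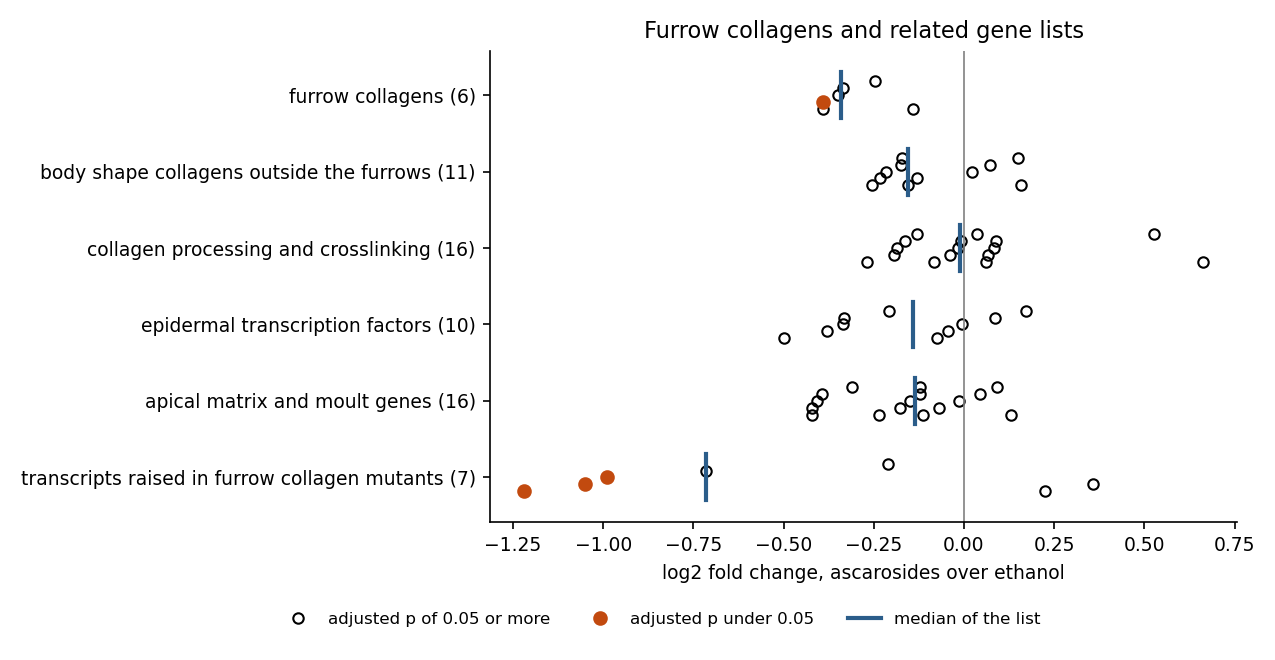
Log2 fold change, ascarosides over ethanol (x axis), of each tested gene in 6 lists, with the number tested in brackets. Filled points have an adjusted p under 0.05 in limma, and the blue bar is the median of the list, -0.34 for the furrow collagens and -0.71 for the transcripts raised in furrow collagen mutants.

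The genes most like the furrow collagens were found by Pearson's r over the 6 libraries with the mean profile of the members, among the 10868 genes averaging 50 normalized counts or more. They were bed-2 (0.995), F18E9.3 (0.994), lpr-6 (0.990), sqt-2 (0.987) and pho-14 (0.987). With 6 points and so many genes, high values arise readily, and the split between the groups is part of each profile. sqt-2, the body shape collagen among them, had 4276, 4334 and 4290 normalized counts in treated libraries 1, 2 and 3, against 4964, 4602 and 4962 in control libraries 4, 5 and 6. All treated values of sqt-2 were below its controls, and its log2 fold change was -0.17 (adjusted p = 0.467 from limma).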

How the data were processed

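Libraries of polyadenylated RNA came from 3 ascaroside-treated and 3 ethanol-treated N2 cultures. Reads had been aligned by tophat2 and assigned to genes by HTSeq. The values the authors deposited are a signal, namely reads per gene over the size factor that DESeq gave that library. Versions and the strand setting are not given in the sources used here, so reads of overlapping genes are uncertain. The methods name WBcel215 and the submitters' processing notes WBcel235, so the WBcel235 annotation was used for lengths, chromosomes and neighbours, without coordinates. The 5 lines of reads outside genes (33.1% to 41.8% of the totals) were left out. The columns name the group of a library, not its replicate number. No sequences were used here.

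The test was limma 3.58.1 in R 4.3.3 (eBayes with trend, two-sided) on log2(normalized count + 1), restricted to the 14965 genes averaging 5 or more, with Benjamini-Hochberg adjustment and calls at 0.05. This scale understates changes of low genes. Reads were recovered from the steps of each column (100% of values whole within 0.01) for edgeR 4.0.16 and DESeq2 1.42.0. Other alternatives were pseudocounts of 0.5 and 5, quantile or upper-quartile scaling, a filter at 50 or none, robust eBayes or eBayes lacking the trend, leaving out each library and, chosen after seeing the data, scaling to all counts on genes. The code was tested on simulated counts. Genes named are the members, genes that overlap them, called genes or extremes of the lists, and the 5 genes most like the members. Further list genes and markers are named where groups were apart, to show both directions or where they were not tested. The 17 col genes called higher are given as a count. Genes were named from a table that holds 43623 of the identifiers. The members and lists were chosen with earlier results of these data known. Plots used Python 3.11.15 and matplotlib 3.10.9.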

Additional observations from a re-analysis of the deposited data

How the results depend on the processing

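All 6 log2 fold changes were negative in all 17 alternatives. Their size and their side of the threshold moved, and the cause was not tested. For dpy-3 the adjusted p was above 0.05 with a pseudocount of 0.5 (log2 fold change -0.39, adjusted p = 0.0510), no filter (-0.39, 0.0502), robust eBayes (-0.39, 0.0609), eBayes without trend (-0.39, 0.255), upper-quartile scaling (-0.37, 0.0560), edgeR (-0.38, 0.0607) and, chosen after seeing the data, scaling to all counts on genes (-0.40, 0.108). With all libraries kept, values that passed only in an alternative were dpy-2 (-0.38, 0.0454) and dpy-10 (-0.40, 0.0326) with quantile normalization, and dpy-9 with DESeq2 (-0.40, 0.0409). The count of members called was thus 0 with edgeR and the other 6 settings in which dpy-3 was lost, 2 with DESeq2 and 3 with quantile normalization. Of the 14965 genes tested, 281 were called lower with DESeq2 and 222 with quantile normalization.

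With one library left out the members called ranged from 0 to 3 and the genes past the threshold between 217 (treated library 2 left out) and 1440 (control library 4 left out), against 527 with all libraries. The 3 members were called without control library 5, where 216 of 14954 genes tested were called lower. Log2 fold changes with one library left out ranged from -0.44 to -0.34 for dpy-3, -0.41 to -0.27 for dpy-2, -0.46 to -0.27 for dpy-9, -0.31 to -0.21 for dpy-7, -0.40 to -0.28 for dpy-10 and -0.26 to -0.07 for dpy-8. Without the trend 1 gene passed. No paired analysis was possible because column names give a group and no label's replicate number, so no block was fitted. With 3 cultures a group split from one population, differences between independent populations could not be measured.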
